A study of Mus musculus with 16 samples.

Results

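Histones are the proteins around which DNA is wound, and 84 of the 24421 genes in the bulk RNA sequencing counts of this series carry a histone symbol. They were taken by symbol alone, which includes Hist3h2bb-ps, a pseudogene by its name. The 68 genes named Hist1h, Hist2h, Hist3h or Hist4h lie in clusters and are called replication-dependent here, and the 16 genes named H2af, H3f3 or H1f are called variants. The libraries were made from CD11b+ myeloid cells sorted from subcutaneous tumours of MC38-Ova, a colon cancer line that carries ovalbumin, in Kaede transgenic C57BL/6 mice of 8 to 14 weeks that received no treatment. Kaede is a protein that light turns from green to red. Tumours were photoconverted on day 13 after injection, so that Kaede-red cells had been in the tumour at photoconversion and Kaede-green cells were those that had arrived since. The sort, 24h or 72h later, took viable cells positive for CD45, Kaede and CD11b and negative for TER119 and NK1.1, and gave 4 libraries each of Kaede-green 24h, Kaede-red 24h, Kaede-green 72h and Kaede-red 72h cells, all in 1 batch. A Kaede-red cell at 72h had therefore spent at least 72h in the tumour, while the sort does not date the arrival of a Kaede-green cell within the interval. A library is a sorted pool of cells, in which fewer cells that express a gene and less RNA per cell cannot be told apart.

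Replication-dependent genes code for the core histones H2A, H2B, H3 and H4 and the linker histone H1 that package newly copied DNA. Their mRNA is made mainly in S phase and is the one class of mRNA in animal cells that usually ends in a short hairpin, the stem-loop, in place of a poly(A) tail. SLBP binds this hairpin, the U7 snRNP with its proteins Lsm10 and Lsm11 directs the cut behind it, and NPAT with CASP8AP2 works at the histone gene clusters. Variant genes are transcribed through the cell cycle, most of their mRNA is polyadenylated, and their proteins replace core histones without replication. The libraries were made from total RNA, so that mRNA without a tail could be read.

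The hairpin was looked for in the annotated transcripts behind the stop codon, as 16 bases in which the stem arms GGNNNT and ANNNCC enclose the loop TNTN and the 6 bases of one arm pair with those of the other. It was found in 46 of the 68 replication-dependent genes (67.6%), in 1 of the 16 variants (6.2%) and in 22 of 21795 other protein-coding genes (0.101%). In these other genes the whole transcript was searched, not only the part behind the stop codon. Of the 22 replication-dependent genes without it, 16 had a transcript model with no annotated stop codon or with under 30 bases behind it, so that the region was mostly not in the model. The sequences are shown because they separate the classes and, within the replication-dependent genes, the H4 genes from the others. Capitals mark the stem-loop and lower case the 5 bases on either side, as DNA letters on the coding strand of GRCm38.
Hist1h1c (linker histone H1): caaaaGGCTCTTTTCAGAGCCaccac
Hist2h2aa1 (H2A): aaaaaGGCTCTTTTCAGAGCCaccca
Hist1h2ao (H2A): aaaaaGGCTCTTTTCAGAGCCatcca
Hist1h4d (H4): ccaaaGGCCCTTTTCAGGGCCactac
Hist1h4i (H4): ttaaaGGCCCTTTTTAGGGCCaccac
Hist2h4 (H4): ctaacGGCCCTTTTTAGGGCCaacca
H2afx (variant H2A): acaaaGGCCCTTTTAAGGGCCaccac
The form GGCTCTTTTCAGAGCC occurred in 26 genes of H1, H2A, H2B and H3 and in no H4 gene. The form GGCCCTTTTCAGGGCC occurred in 7 genes, all of H4, and Hist1h4i and Hist2h4 shared a form of their own. H2afx, whose protein is phosphorylated at DNA breaks and whose gene is known to give mRNA with and without a poly(A) tail, was the variant with a hairpin.

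The genes sit in 4 places of GRCm38. The Hist1h cluster holds 54 genes between 21715763 and 23934851 of chromosome 13, the Hist2h cluster 10 genes between 96219865 and 96270132 of chromosome 3, the Hist3h cluster 3 genes between 58948920 and 58956830 of chromosome 11, and Hist4h4 lies alone at 136801553 to 136804415 of chromosome 6. Variants are scattered over the genome. The 250 bases before the start of transcription in RefSeq were searched on both strands for CCAAT, the site of the factor NF-Y, and for TATAAA, the TATA box. CCAAT was present in 82.3% of the 62 replication-dependent promoters in RefSeq, in 61.5% of 13 variant promoters and in 33.8% of all 32851 promoters. At least 2 copies stood in 69.4% and 46.2% of the replication-dependent and variant promoters and in 10.1% of all promoters. TATAAA was present in 46.8% of replication-dependent promoters, 7.69% of variant promoters and 12.4% of all promoters. The 150 bases before the start of Hist1h1c, on the plus strand at chr13:23738657-23738806, and of the variant H2afz, on the plus strand at chr3:137864337-137864486, show the layout, with CCAAT or its reverse complement in capitals.
Hist1h1c: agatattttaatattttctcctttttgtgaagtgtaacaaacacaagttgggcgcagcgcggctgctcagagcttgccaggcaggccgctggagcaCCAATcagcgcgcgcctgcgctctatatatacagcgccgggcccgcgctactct
H2afz: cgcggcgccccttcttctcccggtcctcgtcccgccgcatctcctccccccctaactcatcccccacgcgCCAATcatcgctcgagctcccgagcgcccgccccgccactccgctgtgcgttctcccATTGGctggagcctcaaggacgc

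Histone genes are near copies of each other, which limits what a single gene's count says. Of the 68 replication-dependent genes, 61 shared at least 1 stretch of 100 bases with another annotated gene, and in 25 more than 50% of such stretches were shared. The counts of Hist1h2bq and Hist1h2br were equal in all libraries, as were those of Hist2h2aa1 and Hist2h2aa2 and of Hist2h3c1 and Hist2h3c2, and those of Hist1h2ao and Hist1h2ap differed by 2 in 1 library. Each pair is therefore 1 measurement printed on 2 rows. Counts of called genes and medians given below include both rows of each pair. How reads that map to several genes were counted is not given in the sources used here, and 24 of the 68 genes overlap another annotated gene. The 12 tested replication-dependent genes with under 10% of shared stretches are accordingly counted apart.

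Total counts per library ranged from 3216858 to 15423085, of which the ribosomal RNA precursor Rn45s took 79 to 93.4% in Kaede-green and 55.8 to 84.9% in Kaede-red libraries. Outside Rn45s there remained 468092 to 5472477 counts, with 2636 to 33624 on replication-dependent and 816 to 10774 on variant genes. Values are given in CPM, counts scaled to library size with edgeR's TMM factors, which align the bulk of the genes between libraries. Of the 84 genes, 71 had enough counts to be tested (63 replication-dependent and 8 variant), and 13 were not tested. Of the latter, Hist2h2be, Hist3h2ba and Hist3h2bb-ps reached 29, 15 and 10 counts in their highest library, Hist1h2aa, Hist1h1t, H1fx, H1foo, H1fnt, H2afy2 and H2afy3 reached 1 to 6, and H2afb1, H2afb2 and H2afb3, variants best known from testis, had none in any library. As to the sort, all 11 monocyte and macrophage genes examined had counts in every library, with Itgam, which codes for CD11b, at 59.5 to 165 CPM. The summed T and NK cell genes lay at 0 to 6.12 CPM and the summed B cell genes at 0 to 2.45 CPM.

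As a sum over the 68 genes, replication-dependent histone RNA was lowest at 72h among Kaede-red cells. The 4 Kaede-red 72h libraries had 563, 846, 876 and 1000 CPM. The Kaede-green 72h libraries had 1430, 1580, 1680 and 1750 CPM, the Kaede-red 24h libraries 1300, 1310, 1590 and 2000 CPM, and the Kaede-green 24h libraries 1080, 1380, 1820 and 2670 CPM. All Kaede-red 72h libraries thus lay below the other 12, which overlapped each other by group. The mean was 822 ± 186 CPM (SD, n = 4) in Kaede-red 72h, 1610 ± 137 in Kaede-green 72h, 1550 ± 328 in Kaede-red 24h and 1740 ± 693 in Kaede-green 24h cells, the last with the widest spread. The sum over the 16 variants ran in the same order at 72h, with 226 to 271 CPM in Kaede-red and 338 to 418 CPM in Kaede-green cells, and was 297 to 340 CPM in Kaede-red and 333 to 542 CPM in Kaede-green cells at 24h. Per total counts outside Rn45s, without TMM, the order differed: the mean for replication-dependent genes was then highest in Kaede-red 24h libraries, at 12000 CPM, followed by 7670 in Kaede-green 72h, 7040 in Kaede-green 24h and 5960 in Kaede-red 72h libraries. With that scaling the Kaede-red 72h libraries, at 4890 to 6450 CPM, no longer lay below all others. They overlapped the Kaede-green 24h libraries (5630 to 9420) and the Kaede-green 72h libraries (6060 to 8840), and lay below the Kaede-red 24h libraries (10400 to 14500). Sums count the doubled genes on both rows, and they are described and not tested.

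**Figure D1:**
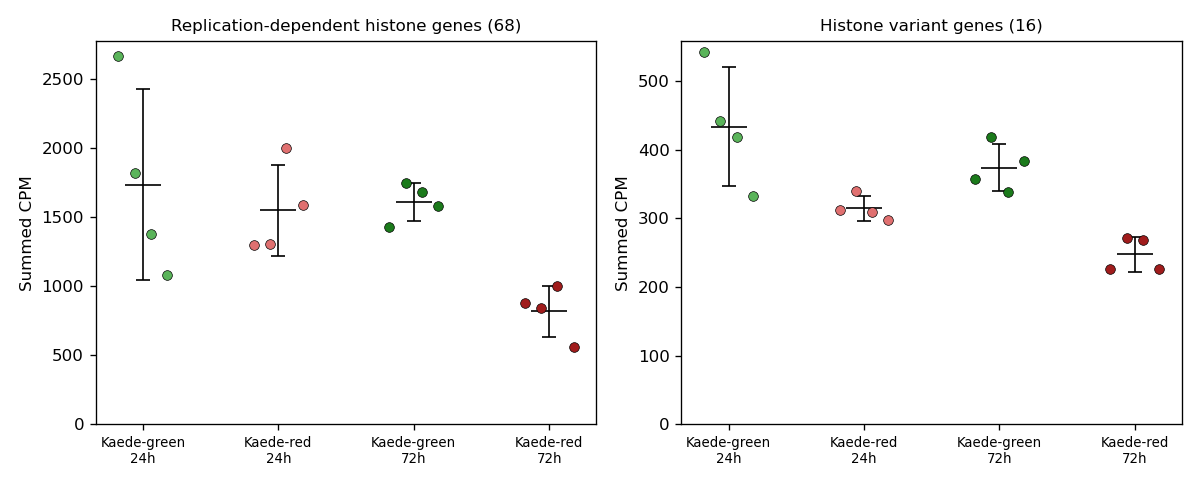
Summed CPM (TMM scaled) of the 68 replication-dependent genes (left) and the 16 variant genes (right) in each library, by group. Points are libraries, the horizontal mark is the group mean and bars show 1 SD (n = 4). With TMM scaling the 4 Kaede-red 72h libraries, 563 to 1000 CPM on the left, lie below all others.

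Per kilobase of exon, the level of the tested replication-dependent genes spanned from 1.46 CPM per kb for Hist1h2ac to 308 CPM per kb for Hist2h2aa2, as means over the 16 libraries, with a median of 17.7. These values depend on the annotated gene models, which differ in length. The longest part behind the stop codon was 0 bases for Hist1h1b and 4931 for Hist1h1d. Hist1h1d had 40.8 CPM but 5.49 CPM per kb, and Hist1h1b had 15.1 CPM but 20.3 CPM per kb. Hist2h2aa1 and Hist2h2aa2, the doubled H2A gene of the Hist2h cluster, stood well above the next gene, Hist1h2ao, at 84.6 CPM per kb. Among variants, H3f3b and H3f3a, which both code for H3.3, the H3 variant laid down outside S phase, had 55.4 and 26.3 CPM per kb. H2afz, the variant H2A.Z found at promoters, had 21.2. H1f0, a linker histone of cells that have stopped dividing, had 6.82, H2afj 5, H2afx 2.91, H2afy, which codes for macroH2A with its large extra domain, 2.71, and H2afv, the second H2A.Z gene, 1.39 CPM per kb.

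The first comparison asked how histone genes differed between cells that stayed and cells that had newly arrived. At 24h, 8 of the 63 tested replication-dependent genes were lower in Kaede-red than in Kaede-green cells and 0 were higher (edgeR quasi-likelihood test, adjusted p under 0.05 over all genes), against 4.3% of all tested genes called lower and 7.51% called in either direction. Of the 8 genes, 7 were H4 genes. The log2 fold changes of all 13 H4 genes had a median of -0.98, and those of the 17 H2A genes had a median of 0.38 with 1 gene called, Hist3h2a, which is named here after its values were seen. Hist1h4i had 20.6, 14.7, 5.61 and 7.35 CPM in Kaede-green 24h libraries and 2.89, 2.19, 3.8 and 5.87 CPM in Kaede-red 24h libraries. Its groups overlapped by 1 library on either side, and its log2 fold change was -1.62 (SE 0.35, adjusted p = 0.00304 from edgeR). Hist1h4m and Hist1h4j fell by 1.09 and by 1.08 on the log2 scale (edgeR adjusted p = 0.0376 and 0.0408). Hist1h4k fell by 1 (edgeR adjusted p = 0.0486). Hist3h2a, which overlaps Trim17 and Gm44313, had 25 to 54 CPM in Kaede-green and 18.5 to 21.9 CPM in Kaede-red libraries, which did not overlap (log2 fold change -0.84, SE 0.23, edgeR adjusted p = 0.022). Hist1h4d, an H4 gene that shares no 100 base stretch with another gene, had 116, 76, 62.8 and 22 CPM in Kaede-green and 32, 34, 50.9 and 31.7 CPM in Kaede-red 24h libraries. Its lowest value was in a Kaede-green library, and its log2 fold change of -0.89 was not called (SE 0.30, edgeR adjusted p = 0.0617). Every Kaede-red 24h library lay below every Kaede-green 24h library in 2 of the 63 genes, Hist3h2a and Hist1h1c, against 5.44% of all tested genes. Of the 12 genes with under 10% of shared stretches, 0 were called at 24h by edgeR.

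These calls at 24h rested on few libraries and on the scaling. Without Kaede-green 24h replicate 1 there was 1 call and without Kaede-red 24h replicate 1 there was 1. Without Kaede-green 24h replicate 2 or replicate 3 there were 5, in the first case 3 lower and 2 higher. Without Kaede-red 24h replicate 2 or replicate 4 there were 3, and without Kaede-green 24h replicate 4 there were 15. When libraries were scaled by total counts outside Rn45s alone, the median of all tested genes itself lay at 0.91 on the log2 scale, and 32 of the 63 genes were called higher in Kaede-red cells and 0 lower. Relative to the median of all genes, the median of the replication-dependent genes was -0.20 with that scaling and -0.24 with TMM, and that of the H4 genes -0.96 and -1.03. With the Rn45s share of each library as a covariate, 2 genes were called, both higher.

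At 72h, 33 of the 63 genes were lower in Kaede-red cells and 0 higher, against 8.76% of all tested genes called lower and 16.8% called in either direction. The log2 fold changes of the 63 genes had a median of -0.97, against 0.03 over all tested genes, and 60 of 63 were below 0. All 13 H4 genes were called (median -1.39), as were 4 of 5 H1 genes (median -1.14), 8 of 17 H2A genes (median -0.75), 7 of 16 H2B genes (median -0.95) and 1 of 12 H3 genes (median -0.44). In 33 of the 63 genes every Kaede-red library lay below every Kaede-green library, against 9.52% of all tested genes. Of the 12 genes with under 10% of shared 100 base stretches, 9 were called lower, with a median of -1.30 over the 12.

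Hist1h4i had 5.46, 7.31, 5.83 and 6.22 CPM in Kaede-green 72h libraries and 1.05, 1.16, 1.21 and 0.903 CPM in Kaede-red 72h libraries. The groups lay far apart, with a log2 fold change of -2.54 (SE 0.38, adjusted p = 1.4e-05 from edgeR). Hist2h4, an H4 gene that shares no 100 base stretch with another gene, had 9.47, 23.8, 23.8 and 22.8 CPM against 5.35, 5.36, 7.85 and 2.61 CPM. It also separated the groups, with a log2 fold change of -1.99 (SE 0.33, edgeR adjusted p = 4.82e-05). Hist1h2ba, an H2B gene best known from testis and counted here at 0.273 to 4.9 CPM, fell by 1.91 (SE 0.53, edgeR adjusted p = 0.0103), and Hist1h4k fell by 1.85 (SE 0.32, edgeR adjusted p = 9.53e-05).

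Among linker histones, Hist1h1c had 113, 105, 67.3 and 63 CPM in Kaede-green 72h libraries and 32.2, 32.7, 41.4 and 21.2 CPM in Kaede-red 72h libraries. The lowest Kaede-green library thus stood above the highest Kaede-red library, and the log2 fold change was -1.46 (SE 0.22, edgeR adjusted p = 1.77e-05). Hist1h1d and Hist1h1e fell by 1.34 and by 1.14 (edgeR adjusted p = 8.55e-05 and 0.000122). Hist1h1b fell by 0.92 (edgeR adjusted p = 0.00735). Among H2A genes, Hist2h2aa1 and Hist2h2aa2, with the same counts, had 175 to 233 CPM in Kaede-green and 57.6 to 102 CPM in Kaede-red libraries and a log2 fold change of -1.24 (edgeR adjusted p = 0.00185).

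The direction at 72h was also found with libraries scaled by total counts outside Rn45s alone, but fewer genes were called, 18 lower and 0 higher. The median of the 63 genes was -0.37 and the median of all genes was then at 0.69. Relative to that median, the replication-dependent genes lay at -1.06, against -1 with TMM. With the Rn45s share as a covariate, 0 of the 63 genes were called at 72h and their median was -0.41. In that fit the count of called genes also dropped from 1623 to 102 among all tested genes.

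**Figure D2:**
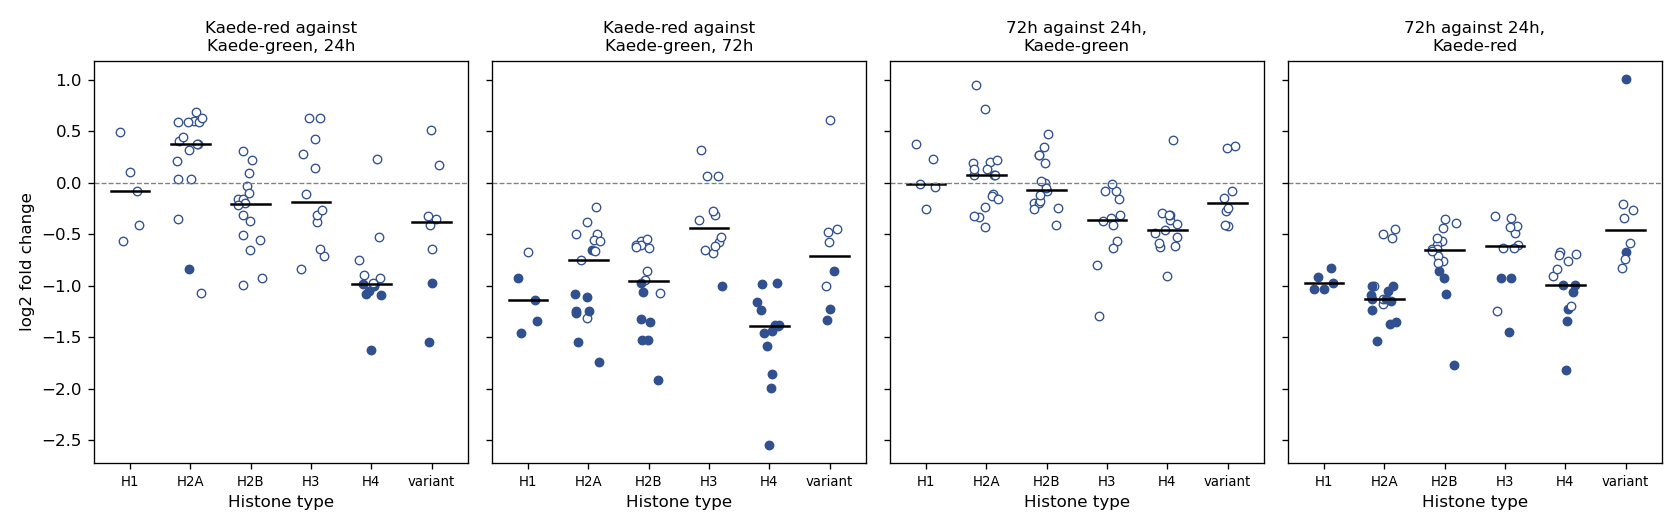
Log2 fold changes (TMM scaled) of the 71 tested histone genes by type in 4 comparisons, with replication-dependent genes split into H1, H2A, H2B, H3 and H4. Filled points were called at an adjusted p under 0.05, open points were not, and the black bar is the median of the type. At 24h the H4 genes lie lowest (median -0.98), at 72h all 13 are called, and in Kaede-red cells over time every replication-dependent gene lies below 0.

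Over both times together, 29 of the 63 replication-dependent genes were lower in Kaede-red cells and 0 higher, against 10.3% of all tested genes called lower and 20.2% called in either direction. By type these were 12 of 13 H4 genes, 8 of 16 H2B genes, 3 of 5 H1 genes, 5 of 17 H2A genes and 1 of 12 H3 genes. Hist1h4i had the lowest value, a log2 fold change of -2.08 (SE 0.26, edgeR adjusted p = 3.7e-07), followed by Hist2h4 at -1.48 (SE 0.23, edgeR adjusted p = 1.11e-05). Hist1h1c was lower in every Kaede-red library than in every Kaede-green library (log2 fold change -1.01, SE 0.16, edgeR adjusted p = 1.13e-05). Under scaling by total counts outside Rn45s alone, the median of the 63 genes turned to 0.19 while that of all genes was 0.81, and with the Rn45s share as a covariate 0 genes were called.

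The second comparison followed each population over time. In Kaede-green cells, 0 of the 63 genes differed between 72h and 24h by edgeR, where 0% of all tested genes were called. At an unadjusted p under 0.05 there were 5 of the 63 and 835 of all 9642 tested genes, and DESeq2 called 0 of the replication-dependent genes and 14 of all genes. The median log2 fold change was -0.16, and the median standard error of a gene in this comparison was 0.42, so that changes of about that size could not be resolved.

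In Kaede-red cells, 29 of the 63 genes were lower at 72h than at 24h and 0 were higher, against 3.76% of all tested genes called lower and 8.67% called in either direction. In 26 of the 63 genes the libraries did not overlap, against 8.76% of all tested genes. All 63 log2 fold changes were below 0, with a median of -0.91 against -0.01 over all tested genes. The called genes were 5 of 5 H1, 11 of 17 H2A, 4 of 16 H2B, 3 of 12 H3 and 6 of 13 H4 genes. More H2A rows were thus called here than between the colours at 24h, where 1 was. The 17 H2A rows include both rows of the pairs Hist1h2ao and Hist1h2ap, and Hist2h2aa1 and Hist2h2aa2. Hist1h2ao, counted with its copy Hist1h2ap, had 48, 42.1, 74.6 and 62.2 CPM in Kaede-red 24h libraries and 32.5, 28.7, 26.1 and 25.5 CPM in Kaede-red 72h libraries. These did not overlap, and the log2 fold change was -1 (SE 0.20, edgeR adjusted p = 0.00279). Hist1h2ad fell by 1.37 (SE 0.29, edgeR adjusted p = 0.0035), and Hist1h4i fell by 1.82 (SE 0.36, edgeR adjusted p = 0.00234). The H2A gene Hist1h2ac and the H3 gene Hist1h3h fell by 1.53 and by 1.45 (edgeR adjusted p = 0.0433 and 0.0417), at levels under 10 CPM. Of the 12 genes with under 10% of shared stretches, 7 were called lower. Without Kaede-red 24h replicate 3, in which replication-dependent genes were highest, 13 genes were called, and there were 17 without Kaede-red 24h replicate 4, 18 without Kaede-red 72h replicate 1 and 15 without Kaede-red 72h replicate 4. With the Rn45s share as a covariate, 1 gene was called and the median was -0.65.

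**Figure D3:**
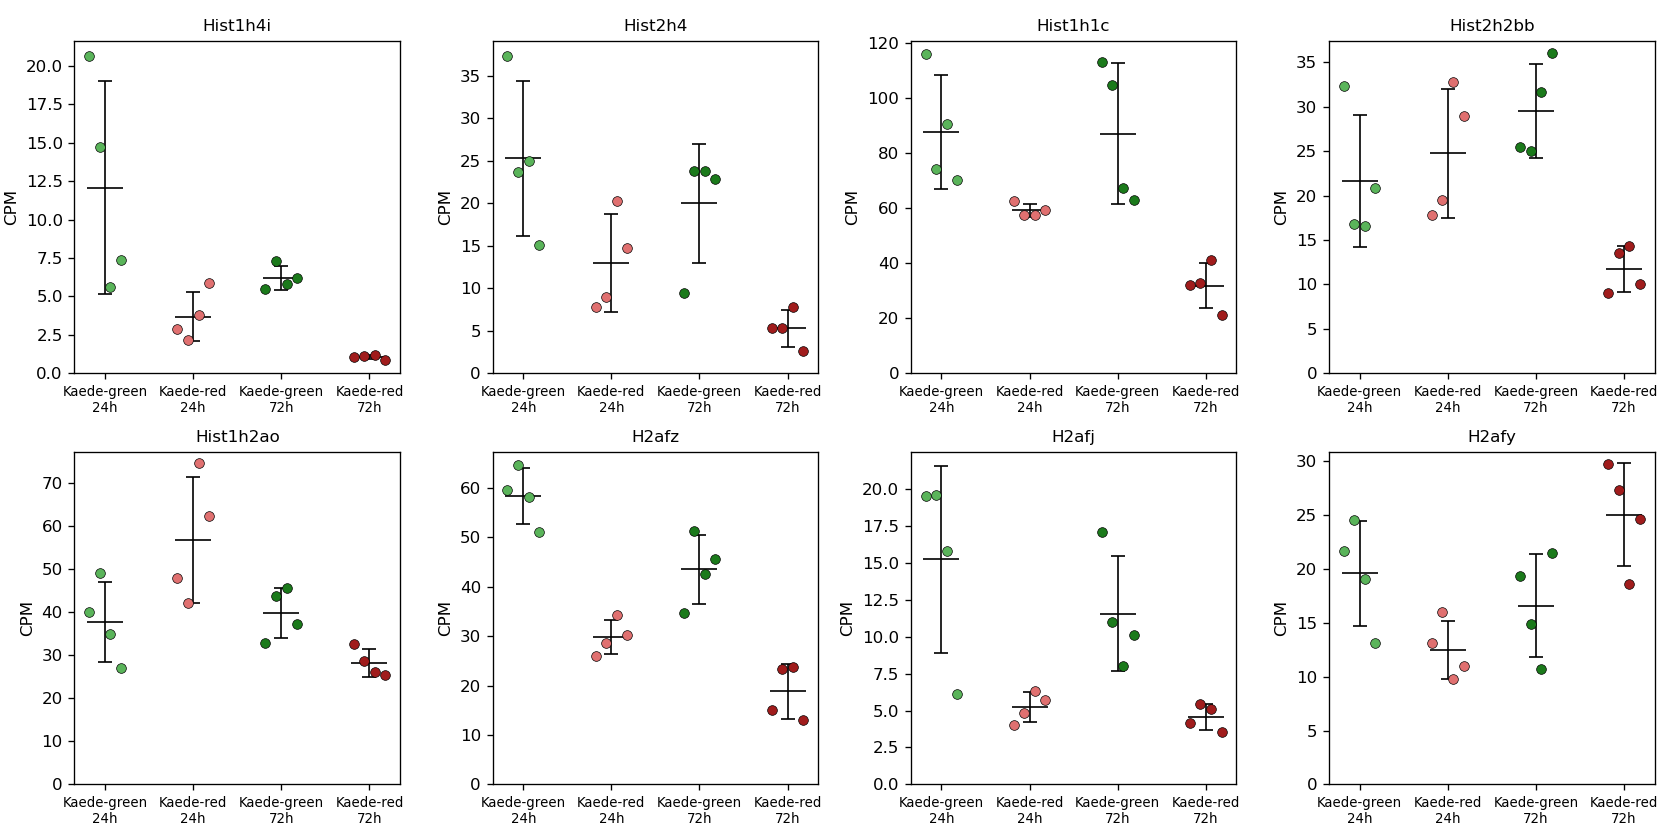
CPM (TMM scaled) of 8 histone genes in each library by group. Points are libraries, the horizontal mark is the group mean and bars show 1 SD (n = 4). Hist1h4i, Hist2h4, Hist1h1c and Hist2h2bb are lowest in Kaede-red 72h cells, H2afz and H2afj are lower in Kaede-red cells at both times, and H2afy is highest in Kaede-red 72h cells.

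The test of whether the difference between the colours itself changed from 24h to 72h called 3 of the 63 genes, all lower, against 0.332% of all tested genes called lower and 0.767% called in either direction. Hist2h2bb, an H2B gene, had 32.3, 16.8, 16.6 and 20.8 CPM in Kaede-green and 17.8, 19.5, 32.8 and 28.9 CPM in Kaede-red libraries at 24h. At 72h it had 25.5, 25, 31.6 and 36 CPM against 9.06, 13.5, 14.3 and 10.1 CPM. The colours overlapped at 24h and were separate at 72h, and the change was -1.57 (SE 0.34, edgeR adjusted p = 0.0281). For Hist1h1b, a linker histone of dividing cells that shares no 100 base stretch with another gene, the change was -1.41 (SE 0.35, edgeR adjusted p = 0.0488), and for Hist1h2ai, an H2A gene, -1.25 (SE 0.32, edgeR adjusted p = 0.0492). These calls were close to the threshold. There were 0 without Kaede-green 24h replicate 2 or 3, Kaede-red 24h replicate 3 or 4, Kaede-green 72h replicate 3, or Kaede-red 72h replicate 1, 2 or 4, 1 without Kaede-green 72h replicate 2 or Kaede-red 72h replicate 3, and 5 without Kaede-red 24h replicate 1. Other settings gave more, all lower, with 12 when libraries were scaled by total counts outside Rn45s, 10 with DESeq2, 10 with at least 10 counts in every library and 8 without a filter. Of the 63 changes, 59 were below 0, with a median of -0.70 against -0.07 over all tested genes.

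Called variants went in both directions. Of the 8 tested variants, 4 were lower among Kaede-red cells over both times, against 10.3% of all tested genes called lower and 20.2% called in either direction. At 24h 2 were lower (4.3% and 7.51% of all tested genes), at 72h 3 were lower (8.76% and 16.8%), and 0 were higher in any of these. With the Rn45s share as a covariate 0 variants were called in each of these comparisons, while the median log2 fold change of the 8 was -0.57 over both times and -0.77 at 72h, against -0.52 and -0.71 without it. The called genes H2afz and H2afj were at -0.81 (SE 0.24) and -1.13 (SE 0.36) over both times in that fit. H2afz had 59.6, 64.6, 58.2 and 51 CPM in Kaede-green 24h libraries and 26, 28.5, 34.2 and 30.2 CPM in Kaede-red 24h libraries. Its values in Kaede-green 72h libraries were 34.6, 51.2, 42.5 and 45.6 CPM and in Kaede-red 72h libraries 15.1, 23.4, 23.7 and 13 CPM. Every Kaede-red library lay below every Kaede-green library. The log2 fold change was -0.97 at 24h (SE 0.21, edgeR adjusted p = 0.00215), -1.22 at 72h (SE 0.21, edgeR adjusted p = 6.77e-05) and -1.10 over both times (SE 0.15, edgeR adjusted p = 9.74e-07). Over time, H2afz fell by 0.67 among Kaede-red cells (SE 0.20, edgeR adjusted p = 0.0338), a call that was lost without Kaede-red 24h replicate 2, 3 or 4 or Kaede-red 72h replicate 1 or 4 (edgeR adjusted p between 0.065 and 0.159), without a filter on low counts (0.122) and with the Rn45s share as a covariate (0.25).

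H2afj, an H2A variant gene, had 19.5, 19.6, 15.8 and 6.12 CPM in Kaede-green 24h libraries and 4.03, 4.86, 6.34 and 5.74 CPM in Kaede-red 24h libraries. Only Kaede-green replicate 4 reached the Kaede-red range. At 72h it had 17.1, 11, 8.02 and 10.1 against 4.14, 5.46, 5.13 and 3.55 CPM. The log2 fold change was -1.54 at 24h (SE 0.30, edgeR adjusted p = 0.000973) and -1.33 at 72h (SE 0.29, edgeR adjusted p = 0.00135), and -0.20 in Kaede-red cells over time (edgeR adjusted p = 0.741).

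Of the H3.3 genes, H3f3a had 81.6 to 129 CPM in Kaede-green 72h and 41.8 to 76.4 CPM in Kaede-red 72h libraries, without overlap, and fell by 0.85 (SE 0.21, edgeR adjusted p = 0.00494). H3f3b had 160 to 188 against 110 to 134 CPM at 72h and a log2 fold change of -0.48 (edgeR adjusted p = 0.0749). Over both times H3f3b fell by 0.44 (SE 0.13, edgeR adjusted p = 0.0153). With libraries scaled by total counts outside Rn45s alone, both genes were called higher at 24h among Kaede-red cells, at 0.57 and 0.51, where the median of all genes was 0.91.

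Among the tested variants 1 gene, H2afy, rose. It had 13.1, 16, 9.78 and 11 CPM in Kaede-red 24h libraries and 29.7, 27.3, 18.6 and 24.6 CPM in Kaede-red 72h libraries, which did not overlap. The log2 fold change was 1.01 (SE 0.23, edgeR adjusted p = 0.00534), where 4.91% of all tested genes were called higher. Among Kaede-green cells its change over time was -0.24 on the log2 scale (edgeR adjusted p = 0.826), and the change of the difference between colours was 1.25 (SE 0.34, edgeR adjusted p = 0.0655). H1f0 had 11.2 to 23.3 CPM in Kaede-green and 6.34 to 15.3 CPM in Kaede-red libraries, and it was called in none of the comparisons. Nor were H2afx, at 1.09 to 7.52 CPM, and H2afv, at 0.408 to 5.57 CPM.

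Ratios within a library do not depend on how libraries are scaled. The ratio of replication-dependent to variant counts was 3.23 to 4.93 in Kaede-green 24h, 3.86 to 6.44 in Kaede-red 24h, 4.01 to 4.96 in Kaede-green 72h and 2.49 to 3.89 in Kaede-red 72h libraries. Within Kaede-red cells it was higher in 3 of the 4 libraries at 24h than in every library at 72h. The ratio of H4 to H2A counts was 0.656, 0.611, 0.89 and 0.371 in Kaede-green 24h libraries and 0.275, 0.306, 0.318 and 0.268 in Kaede-red 24h libraries, which did not overlap. At 72h it was 0.35 to 0.564 in Kaede-green and 0.24 to 0.374 in Kaede-red cells, which did. The ratio of H3 to H2A counts was 0.291 to 0.417 in Kaede-red 72h cells and 0.219 to 0.31 in Kaede-red 24h cells. The H2A sum counts the doubled gene Hist2h2aa1 and Hist2h2aa2 on both rows. Each row had a mean of 163 CPM over all libraries, against 582 CPM for the whole H2A sum, so that 1 measurement weighs heavily in the ratios to H2A. In Kaede-green 24h libraries each row had 335, 195, 75.3 and 121 CPM. These ratios are of sums over members and carry no test.

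**Figure D4:**
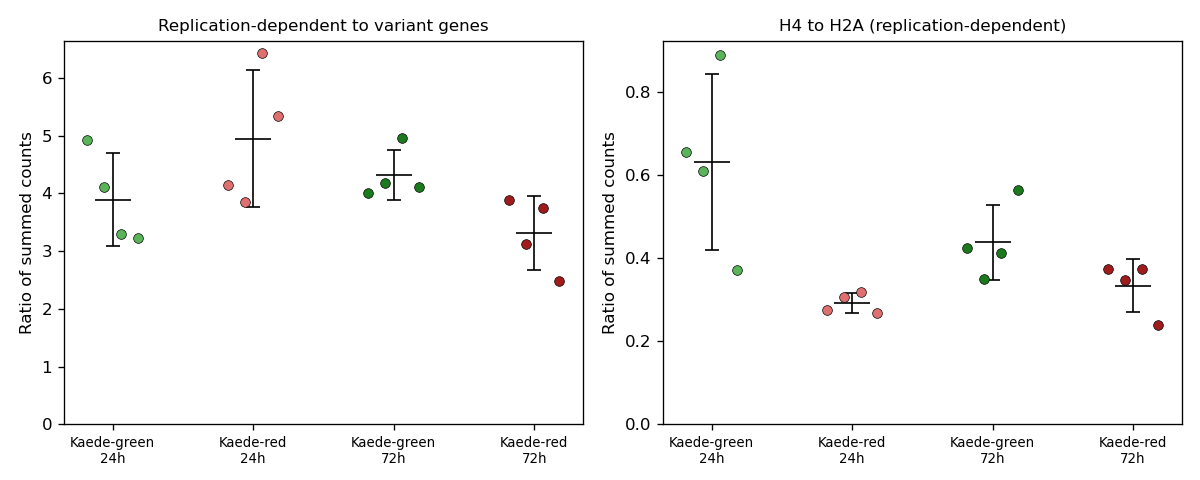
Ratio of summed counts of replication-dependent to variant histone genes (left) and of H4 to H2A genes (right) in each library by group. Points are libraries, the horizontal mark is the group mean and bars show 1 SD (n = 4). On the right the Kaede-red 24h libraries (0.268 to 0.318) lie below all Kaede-green 24h libraries (0.371 to 0.89). The H2A sum counts the doubled gene Hist2h2aa1 and Hist2h2aa2 on both rows.

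Of 21 genes that make and process histone mRNA 18 were tested, and 1 was called in any comparison, where the share of all tested genes called was 7.51% at 24h, 16.8% at 72h and 20.2% for the average of the times. This was Cpsf3, the nuclease that cuts histone and other pre-mRNA, which rose by 0.77 over both times in Kaede-red cells (SE 0.23, edgeR adjusted p = 0.0133). Slbp had 4.01 to 12.7 CPM in Kaede-green and 3.67 to 9.23 CPM in Kaede-red libraries. Its log2 fold change was 0.02 at 72h between the colours (edgeR adjusted p = 0.982) and -0.54 in Kaede-red cells over time (SE 0.25, edgeR adjusted p = 0.189). Npat, Casp8ap2 and Lsm10 were called in none of the comparisons and Lsm11 was not tested for low counts. Of 14 tested chaperones that bring histones to replicating DNA, 1 was called over both times and at 72h, where the same shares of all genes apply. This was Chaf1a, the large subunit of CAF-1, which fell by 1.35 at 72h in Kaede-red cells (SE 0.35, edgeR adjusted p = 0.00626).

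Among the 17 tested chaperones and remodellers of variants, Daxx, the chaperone that places H3.3 in silent chromatin, fell by 0.87 in Kaede-red cells at 24h (SE 0.20, edgeR adjusted p = 0.00502) and rose by 0.90 in Kaede-red cells from 24h to 72h (SE 0.19, edgeR adjusted p = 0.00409). It had 22.2 to 34.4 CPM in Kaede-red 24h and 46.9 to 57.5 CPM in Kaede-red 72h libraries. Anp32e, which takes H2A.Z off chromatin, fell by 0.69 at 72h (SE 0.24, edgeR adjusted p = 0.0456).

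Of 35 tested S phase genes, 1 was lower at 72h in Kaede-red than in Kaede-green cells, against 8.76% of all tested genes, namely Rrm2, a subunit of ribonucleotide reductase (log2 fold change -1.05, SE 0.35, edgeR adjusted p = 0.0336). Over both times 1 was higher and 0 lower, against 20.2% of all tested genes called in either direction. This was Mcm4, a subunit of the replicative helicase (log2 fold change 0.81, SE 0.26, edgeR adjusted p = 0.0271). At 24h and in Kaede-red cells over time 0 were called by edgeR, against 7.51% and 8.67% of all tested genes. The summed S phase genes lay at 119 to 138 CPM in Kaede-red 72h libraries. In Kaede-green 72h libraries they lay higher, at 144 to 153 CPM, without overlap. At 24h the colours overlapped, as did the Kaede-red libraries of 24h and 72h. Of the 35 log2 fold changes, 26 were below 0 at 72h (median -0.23) and 28 in Kaede-red cells over time (median -0.3). At 24h 11 were below 0 (median 0.36), and for the interaction 27 (median -0.49). Of 22 tested mitosis genes, 5 were lower and 0 higher at 72h in Kaede-red cells, against 8.76% of all tested genes called lower, among them the kinetochore motor Cenpe (log2 fold change -1.60, edgeR adjusted p = 0.00144), the checkpoint kinase Bub1b (-1.57, edgeR adjusted p = 0.000798) and the spindle factor Tpx2 (-1.15, edgeR adjusted p = 0.0015). In Kaede-red cells over time 3 were lower, against 3.76% of all tested genes, namely Cenpe, Cdk1 and Mki67, with log2 fold changes of -1.20, -1.35 and -0.83 (edgeR adjusted p = 0.0237, 0.0437 and 0.0476). The summed mitosis genes lay at 49.9 to 64.1 CPM in Kaede-red 72h, 94.3 to 122 in Kaede-green 72h, 55.2 to 121 in Kaede-red 24h and 73.2 to 119 CPM in Kaede-green 24h libraries. Of 9 tested genes of cell cycle exit, 3 were lower in Kaede-red cells at 24h, against 4.3% of all tested genes, namely Btg2, Cdkn2d and Btg1 (log2 fold changes -1.18, -2.01 and -0.77, edgeR adjusted p = 5.71e-05, 7.25e-05 and 0.00941). At 72h 3 were lower, against 8.76% of all tested genes, namely Cdkn2d, Cdkn1b and Btg1 (log2 fold changes -1.38, -1.09 and -0.67, edgeR adjusted p = 0.00124, 0.00137 and 0.0122), and Rb1, which restrains entry into S phase, was higher (0.99, edgeR adjusted p = 0.0206). Over both times 4 were lower and 1 higher, against 10.3% of all tested genes called lower and 20.2% called in either direction.

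Marker genes of cell types also differed between the groups. The 7 fibroblast genes summed to 46 to 51.4 CPM in Kaede-green 72h, 12.5 to 19.5 in Kaede-red 72h, 41.9 to 55.1 in Kaede-green 24h and 20 to 38.5 CPM in Kaede-red 24h libraries. Most of the sum came from the collagens Col3a1, at 4.5 to 24.1 CPM, Col1a1 and Col1a2, while Dcn lay at 0 to 1.63, Pdgfrb at 0 to 2.91 and Lum at 0 to 0.263 CPM, with Lum at 0 in most libraries. Of the 4 tested fibroblast genes, 4 were lower among Kaede-red cells in the comparison of the colours at 72h, 0 in that at 24h and 3 over both times. Of all tested genes, 8.76%, 4.3% and 10.3% were called lower in the same order. Col3a1 also fell by 1.12 in Kaede-red cells over time (edgeR adjusted p = 0.00484).

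Genes of the sorted cells and of other cell types went either way. Of 11 monocyte and macrophage genes, 7 were higher and 0 lower in Kaede-red cells at 72h, against 16.8% of all tested genes called in either direction. Among the 7 were C1qa, a complement chain of macrophages (log2 fold change 2.18, edgeR adjusted p = 5.95e-08), Csf1r, the receptor of their growth factor (1.58, edgeR adjusted p = 2.79e-05), and Itgam (0.90, edgeR adjusted p = 0.000973). At 24h 4 were higher and 1 lower, against 7.51% of all tested genes called in either direction. The lower gene was Lyz2, which codes for lysozyme (-1.81, edgeR adjusted p = 8.57e-05). In Kaede-red cells over time 3 rose, against 4.91% of all tested genes called higher. These were Itgam, Csf1r and Ptprc, which rose by 0.98, 1.11 and 0.67 (edgeR adjusted p = 0.00181, 0.00409 and 0.0237). Among the 3 tested endothelial genes Kdr and Pecam1 were higher at 72h, by 1.34 and 1.36 (edgeR adjusted p = 9.43e-05 and 0.0044). The third, Cdh5, had a log2 fold change below 0 and was not called there. Over both times 2 of the 3 were higher and 1, Cdh5, was lower, against 20.2% of all tested genes called in either direction. The 6 listed endothelial genes summed to 21.9 to 37 CPM in Kaede-red 72h and 10.7 to 19.4 CPM in Kaede-green 72h libraries. Among neutrophil genes Csf3r was higher at 72h, by 1.12 (edgeR adjusted p = 0.000944), and rose by 1 in Kaede-red cells over time (edgeR adjusted p = 0.00433). Chil3, listed for immature neutrophils, fell by 2.20 at 24h (edgeR adjusted p = 8.67e-05) and rose by 1.05 in Kaede-red cells over time (edgeR adjusted p = 0.0457). It was the 1 gene tested of the 9 listed for immature neutrophils. Of the 9, 6 had no count in Kaede-green 24h or in Kaede-green 72h libraries, 3 in Kaede-red 24h and 2 in Kaede-red 72h libraries. Chil3 therefore does not stand for that list. The part of these cell types in the differences between histone genes was not tested.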

How the data were processed

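RNA of 16 sorted CD11b+ cell samples was made into libraries with the SMARTer stranded total RNA pico kit. The authors removed the first bases of read 1 and low-quality ends (Trim Galore), mapped with HISAT2 to the mm10 genome and used featureCounts for genes. The deposited values are raw counts. Versions, annotation, strand setting and the handling of multiply mapped reads are not given in the sources used here. No per-sample column was left unused (0), and a combined table, checked to hold the same counts, was not used.

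Counts of 9642 genes kept by filterByExpr (minimum count 10) were tested with edgeR 4.0.16 in R 4.3.3, with TMM factors and a quasi-likelihood fit of all 16 libraries with a mean for each group, and Benjamini-Hochberg adjustment over all tested genes. Genes with an adjusted p under 0.05 were called. The labels number the replicates, and the study describes points as tumours of independent mice, but no source pairs Kaede-green with Kaede-red libraries. Over tested genes, standard errors of log2 fold changes had medians between 0.27 and 0.53 by comparison. In 24 pairs of replicates the chi-square per gene was 3.21 to 116, so that no library copied another. The test was also run on counts simulated from the fitted means and dispersions. These had no reads shared between gene copies and no Rn45s difference between the colours, so that the run covers neither.

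Positions, transcripts and shared 100 base stretches came from GENCODE M21 on GRCm38, the same assembly as mm10, which holds all 84 symbols. Promoters came from RefSeq on GRCm38.p6, matched for 74 genes, with an ambiguous match for 2.

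Members and gene lists were chosen with earlier results of these data known. Genes named were all tested variants, the 12 replication-dependent genes with the highest mean CPM, up to 4 called rises and falls per comparison, 5 fixed processing genes (Slbp, Npat, Casp8ap2, Lsm10, Lsm11) and up to 4 called genes per list and comparison by p. Alternatives were DESeq2 1.42.0, RLE factors, 2 scalings by total counts, omission of Rn45s, other count filters, only the groups compared, a replicate block, the Rn45s share as covariate, 1 gene per pair of equal counts, and leaving out each library.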

Additional observations from a re-analysis of the deposited data

Results flagged for a closer look

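In 5 of the 132 groups of 4 values examined, which were the CPM of the 31 named members and the summed CPM of both classes in each group, 1 library lay apart from the others, where chance flags about 1 in 20. H3f3a had 78.3 CPM in Kaede-red 24h replicate 4, against 90.8 to 93.3 in the other libraries of the group. In Kaede-red 24h replicate 3, Hist1h1e had 59 CPM, against 47.3 to 48.1, and Hist1h4d had 50.9 CPM, against 31.7 to 34. Hist1h1d had 43 CPM in Kaede-green 72h replicate 4, against 53 to 54.5. Hist2h4 had 9.47 CPM in Kaede-green 72h replicate 1, against 22.8 to 23.8.

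For 3 genes the difference between Kaede-red and Kaede-green cells itself differed between 24h and 72h by the edgeR test of the interaction. The change was -1.57 for Hist2h2bb, -1.41 for Hist1h1b and -1.25 for Hist1h2ai on the log2 scale, and the adjusted p-values of edgeR were 0.0281, 0.0488 and 0.0492.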

How the results depend on the processing

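With the Rn45s share of each library as a covariate, 0 of the 63 replication-dependent genes and 0 of the 8 variants were called over both times and at 72h, 2 replication-dependent genes (both higher) and 0 variants at 24h, 1 and 0 in Kaede-red cells over time, and 1 replication-dependent gene for the interaction. The median of the replication-dependent genes then went from -0.57 to -0.08 over both times and from -0.97 to -0.41 at 72h, while that of the variants went from -0.52 to -0.57 and from -0.71 to -0.77, so that the median of the variants was no smaller where their calls were lost. The share differs between the colours (79 to 93.4% in Kaede-green and 55.8 to 84.9% in Kaede-red libraries), so that share and colour are partly the same in this design. Hist1h2ba over both times was 0.28 in that fit. With scaling by total counts outside Rn45s, 32 replication-dependent genes and 4 variants were called at 24h, all higher, 18 replication-dependent genes at 72h and 12 for the interaction, all lower. The median of all tested genes itself lay at 0.91, 0.69 and -0.27 in these comparisons with that scaling. There the log2 fold changes over both times were 0.17 for H3f3a, 0.33 for H3f3b, 0.77 for H2afy, 0.64 for H1f0, 0.72 for H2afx, 0.18 for Hist2h2aa1 and Hist2h2aa2, 0.17 for Hist1h1e, 0.19 for Hist2h2bb, 0.55 for Hist1h1b and 0.72 for Hist1h2ai, against 0.81 for the median of all genes. At 24h they were 0.57 for H3f3a, 0.51 for H3f3b, 0.82 for Hist1h1e and 0.77 for Hist1h2bq and Hist1h2br, against 0.91 for the median of all genes. These values have the opposite sign of those with TMM. With scaling that also left out Lars2 and Mir6236, chosen after seeing the data, 5 replication-dependent genes were called at 24h (1 lower and 4 higher) and 6 for the interaction.

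Without a filter on low counts, 13 replication-dependent genes were called at 24h (12 lower), 1 variant in Kaede-red cells over time, and 8 replication-dependent genes and 1 variant for the interaction. With at least 10 counts in every library, 5 variants were called at 72h, 4 in Kaede-red cells over time, and 10 replication-dependent genes and 1 variant for the interaction. DESeq2 called 4 variants in Kaede-red cells over time and 10 replication-dependent genes and 1 variant for the interaction. The variant called for the interaction was higher each time. Summed over replication-dependent genes and scaled to counts outside Rn45s without TMM, group means were 7040 CPM in Kaede-green 24h, 12000 in Kaede-red 24h, 7670 in Kaede-green 72h and 5960 in Kaede-red 72h libraries. For variants they were 1800, 2460, 1770 and 1830 CPM. The cause of these changes was not tested.

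Deviations of same-numbered Kaede-green and Kaede-red libraries from their group means correlated at -0.0155 to 0.183. Without values of differently numbered libraries beside them, these correlations cannot decide whether the numbers pair libraries. The numbers were not taken to pair them because no source says that they do. With the replicate block, 5 replication-dependent genes were called at 24h and 1 variant for the interaction. The block joined same-numbered libraries of both times, so that this fit is no test of a pairing of the colours within a tumour.

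With 1 library left out at a time, called replication-dependent genes numbered 22 to 33 over both times, 1 to 15 at 24h, 23 to 38 at 72h, 13 to 37 in Kaede-red cells over time and 0 to 5 for the interaction. Called variants numbered 4 to 4, 2 to 3, 3 to 4, 1 to 3 and 0 to 1 in the same order. Variants in Kaede-red cells over time numbered 1 without Kaede-red 24h replicate 2, 3 or 4 or Kaede-red 72h replicate 1 or 4, and the variant of the interaction appeared without Kaede-green 24h replicate 4 or Kaede-green 72h replicate 4. Of 186 values of named members, 66 were called, and 44 of these kept call and direction whichever library was left out. Of the values not called, 47 changed sign under some setting. Depth limits low genes most, since Kaede-green libraries held as few as 468092 counts outside Rn45s.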
